A study of Mus musculus with 12 samples.

Results

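Glycolysis is the chain of cytosolic reactions that splits glucose into pyruvate, and lactate dehydrogenase then turns pyruvate into lactate and returns NAD+ to the chain. Hexokinase, phosphofructokinase and pyruvate kinase catalyse its essentially irreversible steps, and most steps have several isozymes encoded by separate genes that differ between tissues. Proximal tubular cells of the kidney rely largely on fatty acid oxidation and also make glucose, whereas neutrophils obtain most of their ATP from glycolysis. The RNA of the enzyme set Hk2, Gpi1, Pfkl, Aldoa, Gapdh, Pgk1, Pgam1, Eno1, Pkm and Ldha was followed here, 1 gene for each of 9 glycolytic steps plus lactate dehydrogenase. Members were the rows of both deposited tables whose gene symbol matched. That gave 9 of the 10 genes among 50421 gene rows present in both tables, and all 9 passed the filter on low counts in every comparison. Pgk1 was not analysed here.

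In GENCODE M21 (GRCm38, the assembly also called mm10) the measured members are protein-coding genes on several chromosomes. The upper part of the chain holds Hk2 at chr6:82725025-82774454 on the minus strand, Gpi1 at chr7:34201330-34230336 on the minus strand, Pfkl at chr10:77986947-78010083 on the minus strand and Aldoa at chr7:126795234-126800751 on the minus strand. The lower part holds Gapdh at chr6:125161715-125166467 on the minus strand, Pgam1 at chr19:41911923-41918660 on the plus strand, Eno1 at chr4:150236721-150248879 on the plus strand, Pkm at chr9:59656368-59679375 on the plus strand and Ldha at chr7:46841475-46855627 on the plus strand. The counts are per gene and do not separate transcripts.

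The 12 libraries came from male wild-type C57BL/6J mice of 8 to 12 weeks. All of these mice underwent ischemia/reperfusion injury (IRI) by clamping both renal pedicles for 35 minutes, and all cells were taken 24 hours after IRI, so that none of the libraries used here shows uninjured kidney or blood. The 4 groups of 3 libraries were renal tubular epithelial cells (TECs) and blood neutrophils (PMN), each from mice given glutamine or vehicle. Glutamine was 0.5 g/kg of the dipeptide alanyl-glutamine given intravenously in saline, and the vehicle was saline. A table legend of the study places the dose 15 minutes after reperfusion for the TEC experiment. The study's main text instead describes its IRI model with a dose at 4 hours, and it gives no dose time for the PMN libraries. TECs had been sorted from kidney as CD45- Prominin-1+ cells, which is a marker-based gate and not a single tubule segment. How the PMN were sorted is not given in the sources used here. Nothing in the labels says that same-numbered libraries share an animal, and the tests measure the spread between these libraries. TEC libraries held 5397370 to 10223461 counts and PMN libraries 20225246 to 21878446 counts.

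The labelled cell types were checked against their markers. In TECs, all 10 proximal tubule markers were at or above 1 CPM (read counts scaled to a common library size) in every library and summed to 4906 to 7404 CPM, while Ptprc, which encodes CD45, lay between 0.101 and 2.57 CPM. Markers of other tubule segments also summed to 1161 to 2516 CPM in TECs, and endothelial and stromal markers to 213 to 375 CPM. Red cell and platelet markers summed to 4361 CPM in TEC vehicle replicate 5 and to 6209 CPM in TEC glutamine replicate 2, against 883 to 1544 CPM in the other TEC libraries. In PMN, neutrophil markers summed to 23668 to 66970 CPM and Ptprc to 317 to 1134 CPM. The macrophage and monocyte markers also summed to 17194 to 23414 CPM in the 6 PMN libraries. Most of this was Cd14 and Lyz2, which neutrophils also express, at 9546 to 14334 and 2338 to 5017 TMM-scaled CPM, while C1qa and C1qb, complement genes of macrophages, had 287 to 2572 and 585 to 3394. The part of other cells in these libraries was not tested. PMN vehicle replicate 1 stood apart with 1178 CPM of markers of tubule segments other than the proximal one, and PMN vehicle replicate 2 with 1477 CPM of endothelial and stromal markers, against 7.02 to 35.6 CPM and 14.8 to 77.4 CPM in the other 5 libraries of each. In bulk RNA of this kind, fewer cells of a type and less RNA per cell cannot be told apart.

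Levels within a cell type can be compared between genes only per length, and were expressed on a scale like TPM, in which counts were divided by the median length of the gene's protein-coding transcripts in GENCODE M21 and rescaled to the same sum in every library, with the mean and SD over the 6 libraries of a cell type. In TECs, Gapdh, which oxidises glyceraldehyde 3-phosphate, was the highest member at 1979.8 ± 297, and its range did not overlap that of the next member. Aldoa, the muscle-type aldolase, followed at 312 ± 49.0, Ldha, the lactate dehydrogenase A subunit, at 226 ± 53.0, Pgam1, a phosphoglycerate mutase, at 174 ± 31.5 and Pkm, a pyruvate kinase, at 160.0 ± 30.8. The ranges of neighbours within this group of 4 overlapped. Within libraries, Aldoa lay above Ldha and Ldha above Pgam1 in 6 of 6, and Pgam1 above Pkm in 4 of 6. These means pool both treatments, and on this scale Gapdh, Aldoa, Ldha and Pgam1 lay lower in every glutamine library. The range of Gapdh was 2081 to 2303 with vehicle and 1541 to 1906 with glutamine. The same members were apart by library totals, given further on with the share of all genes on that scale. The share of all genes apart on the per-length scale is not given here. The position was not particular to members, since Tpi1, a glycolytic enzyme outside the set, held it too. Tpi1 had 211 to 270 with vehicle and 172 to 192 with glutamine. Aldoc, another enzyme outside the set, was higher in every glutamine library. Pgam1 had a higher mean than Pkm with vehicle, 201 and 154, and a lower one with glutamine, 147 and 166. Gpi1, the glucose-6-phosphate isomerase, lay at 67.6 ± 8.67. Far below came Eno1 at 7.97 ± 2.50, Hk2, an inducible hexokinase, at 4.81 ± 2.12 and Pfkl, the liver-type phosphofructokinase, at 2.19 ± 0.658, whose neighbouring ranges overlapped as well. Within libraries, Eno1 lay above Hk2 in 5 of 6 and Hk2 above Pfkl in 6 of 6. Eno1 encodes alpha-enolase, and its row needs the reading given further on.

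On the same per-length scale in PMN, Gapdh at 1943 ± 236 and Pkm at 1708 ± 216 led, and their ranges overlapped. Eno1 at 901 ± 166, Ldha at 742 ± 116 and Aldoa at 627 ± 186 came next with overlapping ranges, and then Pgam1 at 343 ± 102 and Gpi1 at 340.3 ± 88.2, which did not separate. Pfkl at 50.4 ± 38.3 and Hk2 at 7.62 ± 8.97 were again the lowest. The members at the steps of hexokinase and phosphofructokinase were thus the least abundant of the set in both cell types on this scale, and the other isozymes of those steps are described with the comparison of cell types.

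**Figure D1:**
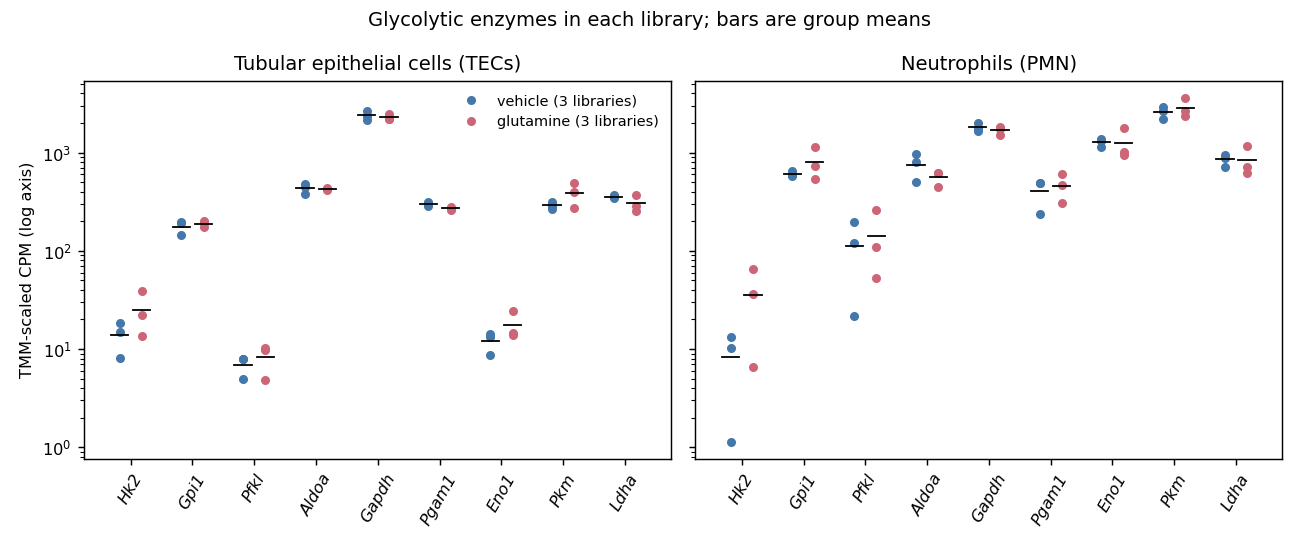
TMM-scaled CPM (log axis) of the 9 measured glycolytic enzymes in each of the 6 TEC libraries (left) and 6 PMN libraries (right), each cell type scaled on its own; points are libraries (blue vehicle, red glutamine) and black bars are means of 3. Hk2, Pfkl and Eno1 reach at most 39.0 CPM in any TEC library, while Eno1 is at 938 CPM or more in every PMN library.

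The first comparison asked whether glutamine given after IRI changed the enzymes' RNA in TECs. It showed no member past the threshold. Hk2 had the largest fold change, Pkm and Eno1 had higher means with glutamine, and Ldha and Pgam1 had lower means, but none of these differences passed the test, and that of Eno1 turned its direction when Eno1b, a nearly identical gene, was added. After Benjamini-Hochberg adjustment of edgeR's p-values over 14734 genes, 0 of 9 members had an adjusted p below 0.05, against 0 genes and 0% of all genes tested. At an unadjusted p below 0.05 there were 0 of 9 members, against 1878 genes or 12.7% of all tested. DESeq2 called 308 genes and limma-voom 0, and neither called a member. The median log2 fold change was 0.10 over the members and 0.01 over all genes tested, with 5 members above 0 and 4 below.

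Hk2, which traps glucose as glucose 6-phosphate, had 18.4, 8.15 and 14.9 TMM-scaled CPM in vehicle replicates 3, 4 and 5 and 22.0, 39.0 and 13.7 CPM in glutamine replicates 1, 2 and 3. The highest value was the shallowest library, glutamine replicate 2, and the lowest glutamine library fell inside the vehicle range. The log2 fold change was 0.84 (SE 0.41, unadjusted p = 0.0684, adjusted p = 0.427, edgeR). Its approximate 95% interval, which takes the error as normal, ran from 0.03 to 1.65 and so lay just above 0, and without glutamine replicate 2 it was 0.37.

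Pkm, whose enzyme makes pyruvate and ATP from phosphoenolpyruvate, had 317, 286 and 266 CPM with vehicle and 399.5, 493 and 269.8 CPM with glutamine. Here too glutamine replicate 2 was highest and replicate 3 lay among the vehicle libraries. The log2 fold change was 0.42 (SE 0.24, adjusted p = 0.480, edgeR), and 0.21 without glutamine replicate 2.

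Ldha had 367, 346 and 357 CPM with vehicle and 256, 286 and 367 CPM with glutamine. A pair of glutamine libraries lay below all vehicle libraries, and the third lay level with the highest vehicle library. The log2 fold change was -0.23 (SE 0.20, adjusted p = 0.651, edgeR). It was -0.13 without glutamine replicate 1 and -0.40 without glutamine replicate 3.

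Pgam1, which moves the phosphate of 3-phosphoglycerate, had 305, 285 and 312 CPM with vehicle and 282, 266 and 263 CPM with glutamine. It was the 1 member whose groups did not overlap on this scale, a position that 9.81% of all genes tested also held in this direction and 9.01% in the other. Its log2 fold change was -0.15 (SE 0.18, adjusted p = 0.748, edgeR). The replicate spread of Pgam1 was small, with a coefficient of variation of 4.2% averaged over both groups, against a median of 16.2% over the 1476 tested genes at 100 CPM or more.

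The remaining members showed small differences or wide ones. Gapdh had means of 2393 ± 272 CPM in the vehicle group and 2293 ± 147 CPM in the glutamine group (SD, n = 3). Its log2 fold change was -0.06, with an approximate 95% interval from -0.43 to 0.31. Aldoa had 436 ± 48.5 and 426 ± 9.0 CPM, with an interval from -0.39 to 0.33, and Gpi1 had 176 ± 28.7 and 188 ± 13.9 CPM, with an interval from -0.30 to 0.49. For Pfkl, at 6.89 ± 1.70 and 8.34 ± 3.06 CPM, the interval from -0.53 to 1.10 reached past 1 on the log2 scale. Eno1 had a log2 fold change of 0.55 (SE 0.33, adjusted p = 0.511, edgeR), which was 0.25 without glutamine replicate 1, 0.36 without vehicle replicate 4 and -0.29 with Eno1b added. Eno1b, which held most reads of the pair in TECs, was itself lower in every glutamine library, at 412 to 528 CPM against 531 to 598 CPM (log2 fold change -0.31, SE 0.19, adjusted p = 0.513, edgeR).

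**Figure D2:**
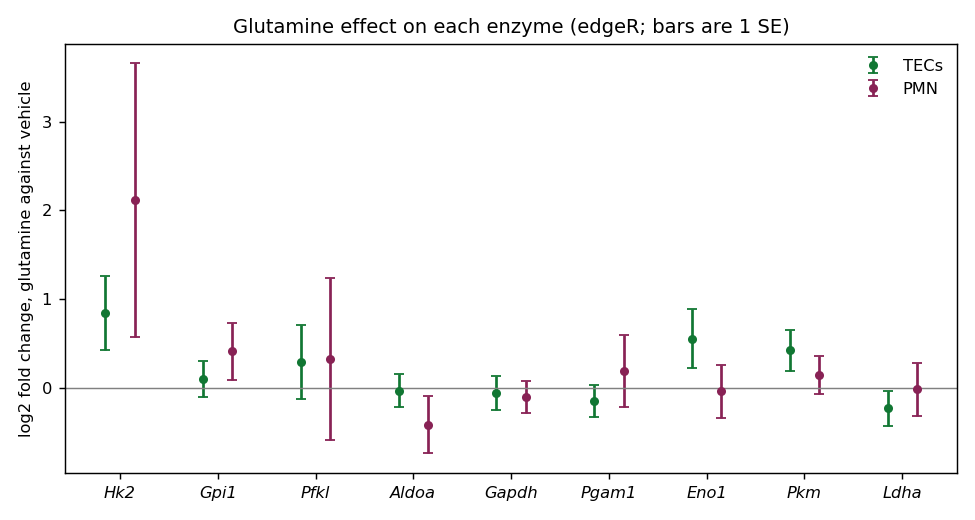
Log2 fold change of glutamine against vehicle for each enzyme (points) with 1 SE either side (bars), from separate edgeR fits of 6 TEC and 6 PMN libraries. In TECs the 1-SE bars of Hk2, Eno1, Pkm and Ldha do not reach 0, and the widest bar is that of Hk2 in PMN, with an SE of 1.54.

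How the TEC libraries were scaled moved these values together. With library totals in place of TMM, the median log2 fold change of all genes tested moved by -0.17, and Gpi1 changed its direction, from 0.10 to -0.07. Aldoa, Gapdh, Pgam1, Ldha, Hk2, Pfkl, Eno1 and Pkm kept their directions under RLE, upper-quartile and total scaling. On CPM by library totals the glutamine libraries of 4 of 9 members, Aldoa, Gapdh, Pgam1 and Ldha, all lay below the vehicle libraries, against 15.4% of all genes tested, and 0 of 9 lay above, against 5.63%. Ldha then had 402, 378 and 352 CPM with vehicle and 246, 264 and 345 CPM with glutamine. The 9 members together took 0.419%, 0.420% and 0.423% of all counts in the vehicle libraries and 0.366%, 0.363% and 0.376% in the glutamine libraries. A share of the counts that differed between the groups went to predicted, Rik and sensory receptor genes, 17.4%, 20.8% and 23.3% with vehicle and 27.8%, 26.3% and 30.8% with glutamine. With those genes left out of the total, the members' share was 0.507%, 0.530% and 0.551% with vehicle and 0.507%, 0.493% and 0.544% with glutamine, and the groups overlapped.

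**Figure D3:**
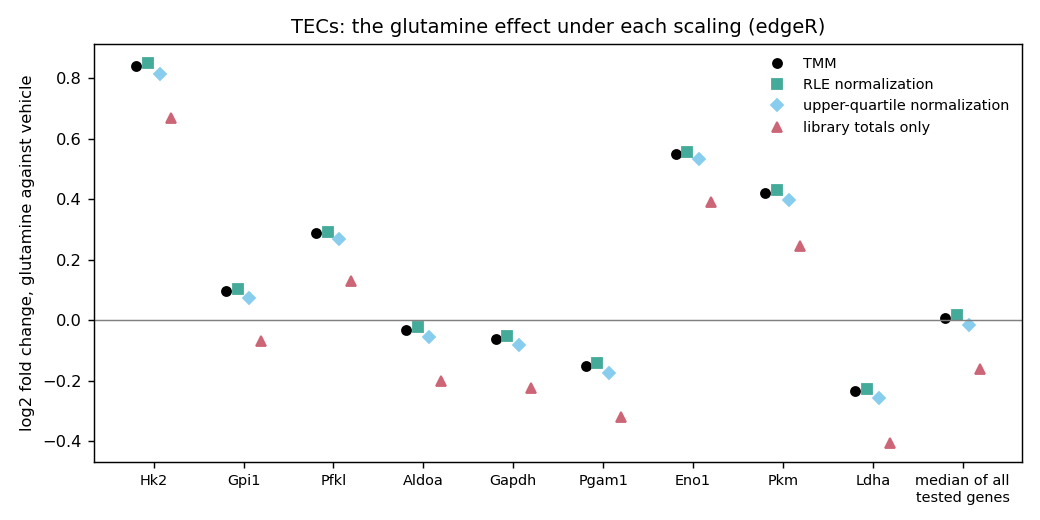
Log2 fold change of glutamine against vehicle in TECs for each enzyme and for the median of all 14734 tested genes (y axis) under 4 ways of scaling the libraries in edgeR (marker shapes). Library totals shift every enzyme and the overall median down by a similar amount, and Gpi1 changes sign.

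Ratios of 2 isozymes within a library do not depend on scaling. In TECs the log2 ratio of Ldha to Ldhb, the heart-type lactate dehydrogenase subunit, was -1.02, -0.88 and -1.30 with vehicle and -1.48, -1.74 and -1.46 with glutamine. Every glutamine library lay below every vehicle library, and the means differed by -0.49. With 3 libraries against 3, the exact two-sided permutation test cannot go below 0.1, and it gave that value here (adjusted p = 0.28 over the 14 ratios computed in both cell types). The log2 ratio of Aldoa to Aldoc, the brain-type aldolase, was also lower in every glutamine library, 7.33 ± 0.474 in the vehicle group and 5.95 ± 0.542 in the glutamine group (SD, n = 3), with the same exact p of 0.1. Aldoc stood at 2.14 to 8.66 CPM in these libraries, so that this ratio rests on few reads. Eno1 to Eno3 separated upward by 1.81 on the log2 scale with the same p, from an Eno3 level of 0.803 to 5.20 CPM. With the counts of Eno1b added to Eno1 (tried only after the values were seen), the groups overlapped, at 6.84 to 7.82 with vehicle and 7.08 to 8.88 with glutamine (exact two-sided permutation p = 0.2). The ratios of Hk2 to Hk1, Pfkl to Pfkm, Pfkl to Pfkp and Eno1 to Eno2 overlapped between the groups.

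Around the chain, 0 genes of the 7 other pathway lists passed the adjusted threshold of edgeR in TECs. At an unadjusted p below 0.05 there were 2 of 13 other glycolytic enzymes and isozymes, 2 of 11 glucose and lactate transporters, 2 of 10 regulators, 2 of 12 genes of pyruvate fate, 1 of 9 glycogen genes, 1 of 7 gluconeogenic genes and 0 of 9 hypoxia-responsive genes, against 12.7% of all genes tested. Hk1, the widely expressed hexokinase, had a vehicle mean of 97.8 ± 12.3 CPM and a glutamine mean of 142 ± 34.9 CPM, with the groups apart (log2 fold change 0.54, SE 0.23, adjusted p = 0.359, edgeR). Pdk2, a kinase that switches off pyruvate dehydrogenase, had a log2 fold change of 0.97 (adjusted p = 0.178, edgeR), and Dlat, a subunit of that dehydrogenase, one of -0.50 (adjusted p = 0.379). G6pc, which releases free glucose at the end of gluconeogenesis, had 1.74 (adjusted p = 0.243, edgeR) at a mean of 15.6 CPM. Slc16a7, a monocarboxylate transporter, had 0.89 (adjusted p = 0.293), and Egln1, an oxygen-sensing prolyl hydroxylase, had -0.56 (adjusted p = 0.372). Myc, a transcription factor that acts on many glycolytic genes, had -0.72 (adjusted p = 0.386), and Pgam2, the muscle-type phosphoglycerate mutase, had 0.79 (adjusted p = 0.499). Of 13 tested genes of other glycolytic enzymes and isozymes, 8 were above 0 and 5 below, with a median of 0.06. Of 11 glucose and lactate transporters, 7 were above 0 and the median was 0.45, against 0.01 over all genes tested. The red cell markers that peaked in vehicle replicate 5 and glutamine replicate 2 were spread over both groups. Of the markers of other tubule segments, 7 of 7 tested were above 0 with glutamine in TECs, with a median of 0.77, and 4 had an unadjusted p below 0.05, while their summed level overlapped between the groups, at 1161 to 2516 CPM with vehicle and 1456 to 2352 CPM with glutamine. Proximal tubule markers were above 0 in 9 of 10 (median 0.30), neutrophil markers in 6 of 7 (0.39) and macrophage and monocyte markers in 4 of 7 (0.66). Ptprc, at a very low level, had 1.67 to 2.57 CPM with glutamine and 0.101 to 1.66 CPM with vehicle. The part of these markers in the values above was not tested.

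The same question in blood PMN gave no member past the threshold either. Means were close for Eno1, Ldha and Gapdh and lower with glutamine for Aldoa, and the spread within groups was larger than in TECs for 7 of 9 members, Eno1 and Pkm being the exceptions. The same held for genes in general, whose median coefficient of variation was 79.3% in PMN and 28.0% in TECs. By edgeR with Benjamini-Hochberg adjustment over 10130 genes, 0 of 9 members had an adjusted p below 0.05, against 0 genes and 0% of all tested, and 0 of 9 had an unadjusted p below 0.05, against 346 genes or 3.42%. DESeq2 called 237 genes and limma-voom 0, and neither called a member. The groups of 0 members were apart in either direction, against 5.87% of all genes upward and 4.63% downward on scaled CPM, and 5.63% and 4.91% by library totals.

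Hk2 had 13.3, 1.14 and 10.3 CPM in PMN vehicle replicates 1, 2 and 3 and 36.1, 6.60 and 64.7 CPM in glutamine replicates 1, 2 and 3. A pair of glutamine libraries lay above all vehicle libraries and the remaining one lay inside their range. The log2 fold change was 2.11 (SE 1.54, unadjusted p = 0.213, edgeR), with an approximate 95% interval from -0.90 to 5.13, so that no difference was detectable at this spread. Pfkl ranged as widely, with 121, 196 and 21.8 CPM against 53.4, 109.9 and 261 CPM, and its log2 fold change of 0.32 (SE 0.91) turned to -0.46 without glutamine replicate 3.

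Pkm had 2186, 2668 and 2913 CPM with vehicle and 3579.6, 2651 and 2346 CPM with glutamine, a log2 fold change of 0.14 (SE 0.22). Eno1 had 1387, 1326 and 1146 CPM against 1801, 1009 and 938 CPM, and Ldha had 884, 719 and 952 CPM against 1172, 627 and 719 CPM. In all 3 genes glutamine replicate 1 was the highest PMN library. It was also highest for Gpi1, at 1131 CPM, and for Pgam1, at 601 CPM, so that 5 of 9 members peaked in this library. It was the highest for the same 5 members by library totals, at 1018 CPM for Gpi1, 541 for Pgam1, 1621 for Eno1, 3223 for Pkm and 1055 for Ldha. This library also had the highest sum of neutrophil markers, 66970 CPM against 23668 to 54585 CPM in the other PMN libraries. The part of this in the members' values was not tested.

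Aldoa had 496, 795 and 972 CPM with vehicle and 618, 451 and 622 CPM with glutamine (log2 fold change -0.42, SE 0.32), which was -0.68 without vehicle replicate 1 and -0.20 without vehicle replicate 3. Gapdh was the steadiest member in PMN, with 1984, 1675 and 1783 CPM against 1720.2, 1494 and 1843 CPM and a coefficient of variation of 9.58%, where the median over 1666 genes at 100 CPM or more was 37.0%. Its log2 fold change was -0.11, with an interval from -0.46 to 0.24. The 9 members together took 0.838% ± 0.0701 of PMN counts in the vehicle group and 0.8298% ± 0.119 in the glutamine group (SD, n = 3).

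Ldha to Ldhb had log2 ratios of 3.06, 3.67 and 4.60 with vehicle and 4.03, 6.74 and 5.92 with glutamine in PMN, overlapping groups (exact two-sided permutation p = 0.2). Eno1 to Eno3 was higher in every glutamine library, by 2.40 on the log2 scale of the ratio, with the smallest exact p of 0.1. With Eno1b added these groups stayed apart, at 5.14 to 5.59 with vehicle and 5.60 to 8.96 with glutamine. Without PMN vehicle replicates 1 and 2, the libraries with tubule or endothelial markers, Pgam1, Eno1 and Pkm changed sign at log2 fold changes of -0.11, 0.11 and -0.04, Pfkl moved to 2.68, and 0 members were called (an alternative chosen after seeing the data, whose vehicle group is replicate 3 alone, assumed to vary like the glutamine libraries). Ptprc was higher in every PMN glutamine library, 679 to 1134 CPM against 317 to 576 CPM. Lymphocyte markers also summed higher there, 30.1 to 46.2 CPM against 0.775 to 6.12 CPM, with Cd3e, Cd8a, Nkg7 and Ncr1 at 0 in all 6 libraries. The part of cell makeup in these values was not tested.

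Of the 7 other pathway lists, 0 genes passed in PMN, and 0 also had an unadjusted p below 0.05 in edgeR. Pfkfb4, which makes an activator of phosphofructokinase, came nearest, with every glutamine library above every vehicle library and a log2 fold change of 1.25 (SE 0.53, unadjusted p = 0.0503, edgeR). Hk1 had 97.1 CPM in vehicle replicate 2 and at most 4.92 CPM in the other 5 PMN libraries.

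The glutamine effects of the 2 cell types were compared by an interaction term in 1 fit of all 12 libraries. It called 17 of 17074 genes, 0.0996%, and 0 of 9 members, whose adjusted p-values lay between 0.825 and 0.9999 (edgeR). The largest difference was that of Hk2, at 1.31 on the log2 scale with an approximate 95% interval from -1.56 to 4.18, followed by Eno1 at -0.53 with one from -1.44 to 0.38. Leaving out 1 library moved Hk2 between 0.60, without PMN glutamine replicate 3, and 1.80, without PMN vehicle replicate 1, with 0.72 without PMN vehicle replicate 2. It moved Eno1 between -0.90, without PMN glutamine replicate 1, and -0.19, without TEC glutamine replicate 1, with -0.30 without TEC vehicle replicate 4 and -0.34 without PMN glutamine replicate 3. With Eno1b added the value of Eno1 turned to 0.30, so that its direction and place depend on whether Eno1b is counted with it. DESeq2 and limma-voom, which called 1028 and 63 genes, called no member.

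The contrast of cell types gave the largest differences. PMN carried more RNA of 7 of 9 members than TECs, from about 2-fold for Aldoa and Pgam1 through 11.2-fold for Pkm and 22.7-fold for Pfkl to 120-fold for the row of Eno1, while Gapdh and Hk2 did not pass the test. With Eno1b added, the log2 fold change of Eno1 went from 6.91 to 1.79, below those of Pfkl, Pkm, Gpi1 and Ldha. Eno1b, Pfkm and Ldhb, other isozymes of the same steps, were lower in PMN, and Eno3, the muscle-type enolase, was higher. In 1 fit of all 12 libraries, 7 of 9 members were higher in PMN at an adjusted p below 0.05, against 17% of 17074 genes, and 0 were lower, against 36.5%. The median log2 fold change was 1.83 over the members and -1.11 over all genes tested. The cell type, the sequencing platform, the table and any difference in library preparation are the same split here and cannot be told apart. Total scaling moved the median of all genes by -0.48, upper-quartile scaling by -0.42 and RLE by -0.12. The 7 members were higher in PMN under each of these, and Pgam1 missed the threshold under total scaling (log2 fold change 0.57, adjusted p = 0.0559, edgeR).

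Pfkl, which commits sugar to glycolysis as part of the phosphofructokinase tetramer, lay at 3.81 to 8.57 jointly scaled CPM in TECs and at 25.9 to 290 CPM in PMN. The groups were well apart although PMN vehicle replicate 3 was the lowest PMN library. The log2 fold change was 4.51 (SE 0.63, adjusted p = 1.73e-04, edgeR). The muscle-type Pfkm went the other way, at 1.82 to 5.72 CPM in TECs, 0.784 CPM in PMN glutamine replicate 2 and 0 in the other 5 PMN libraries. The platelet-type Pfkp, at 42.4 ± 11 CPM in TECs and 107 ± 73.7 CPM in PMN (SD, n = 6), did not pass the test (adjusted p = 0.230, edgeR).

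Pkm had 223 to 389 CPM in TECs and 2600.2 to 4136 CPM in PMN, with a log2 fold change of 3.49 (SE 0.19, adjusted p = 2.36e-07, edgeR). With limma-voom the log2 fold change was 3.50 and did not pass (adjusted p = 0.744). The fitted trend of spread in that limma-voom fit was negative at its lowest point, -0.136 at a log2 count of 17.3. Why the call was lost was not tested. The tables are per gene, so that the M1 and M2 splice forms of Pkm are not separated. Pklr, the liver and red cell pyruvate kinase, reached at most 2.29 CPM in TEC libraries and 0.056 CPM in PMN libraries, and was not tested.

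Gpi1 had 125 to 171 CPM in TECs and 638 to 1306 CPM in PMN (log2 fold change 2.40, SE 0.20, adjusted p = 6.37e-06, edgeR). Pgam1 had 210 to 272 CPM in TECs and 280 to 694 CPM in PMN, where vehicle replicate 1, the library with tubule markers, was lowest (log2 fold change 1.06, SE 0.23, adjusted p = 0.00274, edgeR). With the vehicle libraries alone Pgam1 did not pass (log2 fold change 0.76, adjusted p = 0.120).

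Aldoa had 334 to 424 CPM in TECs and 536 to 1154 CPM in PMN (log2 fold change 1.06, SE 0.19, adjusted p = 6.68e-04, edgeR).

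Ldha and Ldhb differed in opposite directions. Ldha had 213 to 328 CPM in TECs and 745 to 1354 CPM in PMN (log2 fold change 1.83, SE 0.20, adjusted p = 3.42e-05, edgeR), and Ldhb had 560 to 839 CPM in TECs and 6.95 to 126 CPM in PMN (log2 fold change -3.73, SE 0.58, adjusted p = 3.19e-04). The highest PMN value of Ldhb was vehicle replicate 1.

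Hk2 had the widest interval of the members in this contrast and did not pass, at 7.14 to 30.8 CPM in TECs and 1.32 to 72.0 CPM in PMN (log2 fold change 0.36, SE 0.73, adjusted p = 0.709, edgeR). Its approximate 95% interval ran from -1.08 to 1.79, and its sign turned under total and upper-quartile scaling, with limma-voom and with the vehicle libraries alone. Hexokinase RNA differed by isozyme instead. Hk3, known from myeloid cells, had 43.2 to 164 CPM in PMN and at most 0.0907 CPM in TECs (adjusted p = 1.14e-05, edgeR). Hkdc1, a hexokinase domain protein, was at 0 in all PMN libraries and at 1.32 ± 1.58 CPM in TECs. That mean rests largely on vehicle replicate 3 at 4.40 CPM, the other TEC libraries having 0.0866 to 1.27 CPM. Hk1 had 74.3 to 143 CPM in TECs and 0 to 5.47 CPM in 5 PMN libraries, with 113 CPM in PMN vehicle replicate 2, the library with endothelial markers (log2 fold change -3.07, SE 1.21, adjusted p = 0.0520).

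Gapdh, often used as a loading reference, had 1737 to 2271 CPM in TECs and 1776 to 2361 CPM in PMN. The ranges lay almost on top of each other, and the log2 fold change was 0.04 (SE 0.10, adjusted p = 0.738, edgeR). The size and sign of this difference depended on the scaling. With library totals it was -0.44 (adjusted p = 0.00257), with upper-quartile scaling -0.36 (adjusted p = 0.0423) and with RLE -0.07. Tpi1, the triose phosphate isomerase, which is not a member, had 200 ± 25.8 CPM in TECs and 310 ± 115 CPM in PMN (SD, n = 6, adjusted p = 0.0658, edgeR).

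**Figure D4:**
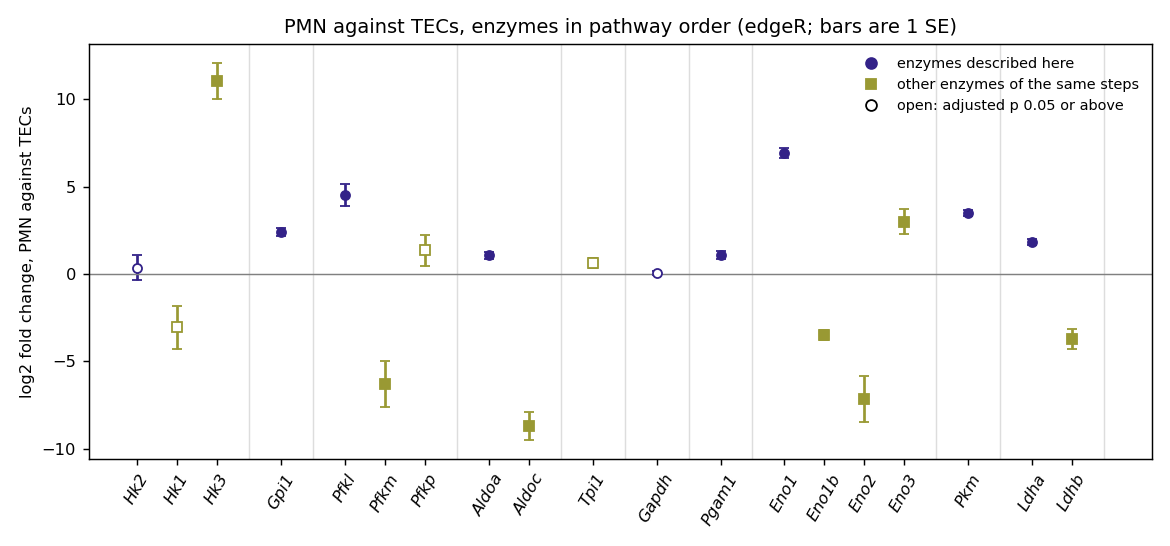
Log2 fold change of PMN against TECs (y axis, edgeR fit of 12 libraries, bars 1 SE) for the 9 enzymes (circles) and some other enzymes of the same steps (squares) in pathway order; open symbols did not pass the adjusted threshold of 0.05. With the TMM scaling shown the circles lie above 0, those of Gapdh (3 other scalings) and Hk2 (upper quartile and totals) turning below it, while Pfkm, Aldoc, Eno1b, Eno2 and Ldhb lie below it; the fitted value of Aldoc, which is at 0 in all PMN libraries, depends on the prior count.

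Eno1 by its own row had the largest contrast of the members, 7.61 to 20.0 CPM in TECs against 1043 to 2081 CPM in PMN (log2 fold change 6.91, SE 0.30, adjusted p = 6.64e-08, edgeR), and did not pass with limma-voom (6.88, adjusted p = 0.185). That limma-voom fit is the one whose trend of spread turned negative, as given for Pkm. The value of Eno1 depends on how reads were shared with Eno1b, a nearly identical gene. Of the 50-base stretches of Eno1b transcripts in GENCODE M21, 76.8% also occur in Eno1 transcripts, and the reads were 50 bases long, so that such reads cannot be assigned by sequence. The processed pseudogene Gm4735 shares 83.3% of its stretches with Eno1. Eno1b went the opposite way, with 474, 491, 508, 350, 325 and 437 CPM in the TEC libraries and 18.4 to 56.0 CPM in the PMN libraries. Eno3 had 2.56 ± 1.57 CPM in TECs and 22.9 ± 16.3 CPM in PMN (SD, n = 6, log2 fold change 2.99, adjusted p = 0.00556, edgeR), with overlapping ranges. Eno1 accounted for 1.53% to 5.42% of the sum of both in TECs and for 97.0% to 98.3% in PMN. With Eno1b added to Eno1, the libraries held 337 to 519 CPM in TECs and 1062 to 2137 CPM in PMN, and the log2 fold change was 1.79 (adjusted p = 2.78e-05) in the same edgeR test. For glutamine in TECs the same sum turned the direction, from 0.55 to -0.29 (adjusted p = 0.545). The sum still differed between cell types. The split between the genes follows the 2 tables and the sequencing platforms as well as the cell types. Which of these accounts for it was not tested. Gapdh has 26 copies in the tables with at least 50% of their 50-base stretches shared, but these held at most 11.3 CPM together in any library, and the 1 such copy of Pgam1 took 3.72% of the pair's counts or less in each group's total.

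**Figure D5:**
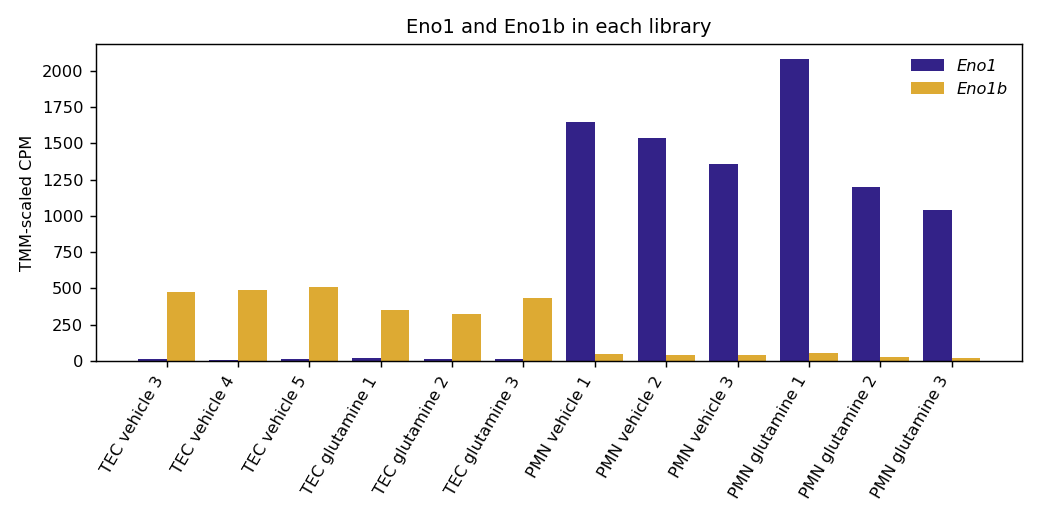
TMM-scaled CPM of Eno1 (dark) and Eno1b (light) in each of the 12 libraries, scaled jointly. Eno1b is the higher bar in all 6 TEC libraries, at 325 to 508 CPM, and Eno1 in all 6 PMN libraries, at 1043 to 2081 CPM.

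Genes that feed and regulate the chain were compared in the same fit. Of 12 glucose and lactate transporters, 4 were higher in PMN and 5 lower, where 17% of all genes were higher and 36.5% lower. Slc16a3, the lactate exporter MCT4, had 2.57 ± 1.26 CPM in TECs and 871 ± 254 CPM in PMN (SD, n = 6, log2 fold change 8.42, adjusted p = 7.35e-08, edgeR), and Slc2a6, a glucose transporter family member, had 0.196 ± 0.311 and 331 ± 219 CPM. Slc2a3, the high-affinity glucose transporter GLUT3, was higher in PMN with a log2 fold change of 2.38 (adjusted p = 3.27e-04). Of 10 tested regulators, 3 were higher in PMN and 1 lower, against the same shares of all genes. Pfkfb3 and Pfkfb4, which make the activator fructose 2,6-bisphosphate of phosphofructokinase, rose by 3.17 and 5.85 on the log2 scale (adjusted p = 7.37e-06 and 2.15e-06, edgeR).

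Of 7 gluconeogenic genes tested, 4 were lower in PMN, against 36.5% of all genes, and 0 were higher, against 17%. Fbp1 was at -5.80 (adjusted p = 4.39e-04, edgeR). Fbp2, a second fructose bisphosphatase, was at 0 in all PMN libraries and at 24.2 ± 6.77 CPM in TECs. Of 12 genes that set the fate of pyruvate, 2 were higher in PMN and 4 lower, where 17% of all genes were higher and 36.5% lower. Pcx, the pyruvate carboxylase that starts gluconeogenesis, had -7.96 (adjusted p = 1.15e-05, edgeR), Pdk4 had -6.13 (adjusted p = 0.00390) and Mpc1, a mitochondrial pyruvate carrier subunit, had 2.01 (adjusted p = 2.15e-04). Of 9 tested glycogen genes, 2 were higher in PMN and 1 lower, against 17% and 36.5% of all genes. Pygl, the liver-type glycogen phosphorylase, was higher by 7.05 on the log2 scale (adjusted p = 5.97e-07, edgeR). The other higher gene was Phkg2, a phosphorylase kinase subunit, at 3.52 (adjusted p = 0.00218, edgeR). Pgm1, a phosphoglucomutase, had -4.43 (adjusted p = 0.0597, edgeR). Of 14 tested genes of other glycolytic enzymes and isozymes, 3 were higher and 7 lower, against 17% and 36.5% of all genes. Their median was -3.40, against 1.83 for the members and -1.11 for all genes. Adpgk, an ADP-dependent glucokinase, was among the higher ones at 5.28 (adjusted p = 8.99e-04). Of 10 hypoxia-responsive genes outside glycolysis, 2 were higher and 4 lower, against 17% and 36.5% of all genes. Among them were Ankrd37 at 5.65, Ndrg1 at -5.59 and Adm at -6.15 (adjusted p = 0.00444, 2.23e-05 and 0.0134, edgeR).

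Promoters of several glycolytic genes are known to hold binding sites of hypoxia-inducible factor, whose core is ACGTG or GCGTG. Windows of 250 bases before RefSeq transcript starts (GRCm38.p6) were searched on both strands, and ACGTG was also counted where it is part of the E-box CACGTG. For all 9 measured members a window was found, 15 windows in all, of which 12 held at least 1 core, against 38.6% of 32851 windows of all genes. Some windows of Eno1 overlap each other, as do some of Aldoa, and their shared cores were counted in each window. By gene, 8 of 9 members held one in some window, Gpi1 being the exception, against 41.5% of 27025 genes. Members had 15 windows for 9 genes and all genes 32851 for 27025, and a gene with more windows has more chances of a match. The E-box was found for 1 member, Ldha, and in 6.86% of all genes. Shown as examples are 3 windows that touch no exon in GENCODE M21, from members higher in PMN, in lower case with every core match in capitals, 5′ to 3′ on the gene's strand. The first is Ldha, chr7:46845554-46845803 on the plus strand, with 5 matches, then Pgam1, chr19:41911621-41911870 on the plus strand, with 3, and Aldoa, chr7:126799255-126799504 on the minus strand, with 1. Each E-box in the Ldha window counts as 1 match on each strand, so that its matches exceed its stretches in capitals.
Ldha: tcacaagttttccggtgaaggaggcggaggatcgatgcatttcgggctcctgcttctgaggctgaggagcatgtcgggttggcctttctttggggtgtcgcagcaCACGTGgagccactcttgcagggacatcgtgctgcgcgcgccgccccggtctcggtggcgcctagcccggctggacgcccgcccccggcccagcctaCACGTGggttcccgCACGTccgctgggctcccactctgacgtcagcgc
Pgam1: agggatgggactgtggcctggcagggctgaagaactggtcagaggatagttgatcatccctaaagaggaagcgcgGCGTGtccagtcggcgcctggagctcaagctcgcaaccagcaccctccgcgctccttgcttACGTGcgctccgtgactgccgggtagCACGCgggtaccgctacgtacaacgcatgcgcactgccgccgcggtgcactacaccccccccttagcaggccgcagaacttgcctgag
Aldoa: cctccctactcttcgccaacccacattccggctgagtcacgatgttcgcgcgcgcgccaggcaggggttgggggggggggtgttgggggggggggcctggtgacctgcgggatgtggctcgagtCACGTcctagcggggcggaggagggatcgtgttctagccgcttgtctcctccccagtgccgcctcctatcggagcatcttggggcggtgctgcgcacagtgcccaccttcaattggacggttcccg
A match is a description of these letters and no measurement of binding. Hif1a RNA, which encodes the oxygen-regulated subunit of the factor, was at 70.4 ± 6.63 CPM in TECs and 412 ± 221 CPM in PMN (SD, n = 6), and the protein was not measured in these files.

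As a description of shared patterns, the genes whose log2 CPM over the 6 libraries of a cell type most resembled the mean standardized level of the 9 members were listed. In TECs these were Gkap1, Bcdin3d and Ddx49, with Pearson r of 0.95, 0.94 and 0.94, and in PMN Srrm1, Zc3h13 and Arid2, with r of 0.98, 0.97 and 0.97. Each r is over 6 libraries that share their scaling and treatment groups, and was picked as the highest among all genes tested.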

How the data were processed

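Poly(A) RNA had been sequenced single-end with 50-base reads. The submitters' processing notes name Trim Galore 0.6.4, Salmon 1.0.0 and mm10, and the annotation is not given in the sources used here. The TEC table was deposited by the authors as estimated counts per gene, not normalized. The PMN table, deposited by the authors as other text, holds estimated counts altered by a spreadsheet, with extra points in 3.20% of cells and dates in 0.391%. These were decoded, the last point being read as the decimal point, and the 2 columns of each PMN library were averaged. Counts were rounded. Genes on X, Y and the mitochondrial genome were not analysed here.

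Genes were filtered with filterByExpr and tested with edgeR 4.0.16 (R 4.3.3), TMM scaling and quasi-likelihood tests with Benjamini-Hochberg adjustment, at a threshold of 0.05. TECs and PMN were fitted apart for glutamine and together for cell types and the interaction. The SE is the log2 fold change divided by the square root of F. Isozyme ratios used a pseudocount of 0.5 counts, a mean of at least 10 counts and exact permutation tests. Alternatives were DESeq2 1.42.0, limma-voom 3.58.1, other scalings and filters, and leaving out libraries. Scripts were tested on simulated data.

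All members were named, with their isozymes except 1 not reported here. Genes named from the other lists were among the 3 tested genes per list and comparison with the largest absolute log2 fold change at a mean of 10 CPM or more. Not all of these are printed. Hif1a in the contrast of cell types was chosen after its values were seen. Members and lists were chosen with earlier results of these data known.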

Additional observations from a re-analysis of the deposited data

How the results depend on the processing

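0 members were called for glutamine or for the interaction under any setting. Over all genes, edgeR called 0 in TECs (DESeq2 308, no filter 425, leaving out 1 library 0 to 36, with 36 without glutamine replicate 2) and 0 in PMN (DESeq2 237, leaving out 1 library 0 to 0). It called 9131 between cell types (2621 among genes with 10 counts in every library, 5844 with vehicle libraries alone, 8743 to 9767 leaving out 1) and 17 for the interaction (DESeq2 1028, limma-voom 63, 0 with 10 counts in every library, 591 without PMN vehicle replicates 1 and 2, a fit with 1 PMN vehicle library, 0 to 152 leaving out 1). Of the 7 members called between cell types, 5 were called with limma-voom, where Eno1 had an adjusted p of 0.185 and Pkm of 0.744. The voom trend of that fit had its lowest point below 0, at a log2 count of 17.3. Why these calls were lost was not tested. Without predicted and sensory receptor genes the difference in the members' share of TEC counts went from -0.0521 to -0.0149 percentage points, and leaving out 1 library gave -0.0559 to -0.0494.

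Signs turned as follows, and the cause was not tested. In TECs: Gpi1 -0.070 with library totals, Aldoa 0.021 without predicted genes, Eno1 -0.29 with copies added. In PMN: Eno1 0.027 and Ldha 0.033 with upper-quartile scaling, and Pgam1 -0.11, Eno1 0.11 and Pkm -0.043 without vehicle replicates 1 and 2. Between cell types: Gapdh -0.065 with DESeq2 and RLE, -0.36 with upper quartile, -0.44 with totals, -0.18 with no filter, -0.45 with 10 counts in every library, -0.10 without predicted genes and -0.043 with vehicle libraries alone, and Hk2 -0.080 with limma-voom, -0.024 with upper quartile, -0.14 with totals, -0.11 with 10 counts in every library and -0.32 with vehicle libraries alone. For the interaction: Gapdh -0.0015 with limma-voom, -0.031 with 10 counts in every library, -0.0050 without predicted genes and -0.011 without PMN vehicle replicates 1 and 2, and Eno1 0.30 with copies added. Adding copies and leaving out PMN vehicle replicates 1 and 2 were chosen after seeing the data. The latter leaves 1 PMN vehicle library, which is assumed to vary like the other groups, so that its values rest on that library.

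Leaving out 1 library gave log2 fold changes in TECs of -0.037 to 0.17 for Gpi1, -0.12 to 0.028 for Aldoa and -0.14 to 0.022 for Gapdh, and, with the sign kept, 0.37 to 1.13 for Hk2, 0.092 to 0.55 for Pfkl, 0.21 to 0.62 for Pkm, 0.25 to 0.69 for Eno1, -0.40 to -0.13 for Ldha and -0.19 to -0.13 for Pgam1. In PMN it gave -0.46 to 0.98 for Pfkl, -0.12 to 0.36 for Pgam1, -0.42 to 0.12 for Eno1, -0.074 to 0.26 for Pkm and -0.36 to 0.11 for Ldha, and, with the sign kept, 1.35 to 2.58 for Hk2, 0.055 to 0.59 for Gpi1, -0.68 to -0.20 for Aldoa and -0.18 to -0.068 for Gapdh. Between cell types it gave -0.028 to 0.13 for Gapdh and -0.0012 to 0.66 for Hk2. For the interaction it gave -0.66 to 0.65 for Pfkl, -0.50 to 0.0018 for Aldoa, -0.10 to 0.15 for Gapdh, -0.41 to 0.048 for Pkm and -0.072 to 0.48 for Ldha, and, with the sign kept, 0.60 to 1.80 for Hk2, 0.029 to 0.58 for Gpi1, 0.16 to 0.69 for Pgam1 and -0.90 to -0.19 for Eno1. No paired analysis was possible because only 1 number recurs in both TEC groups and PMN numbers follow accession order.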
